A study of Mus musculus with 6 samples.

Results

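The S100 genes encode small calcium-binding proteins, and 8 of them (S100a1, S100a4, S100a6, S100a8, S100a9, S100a10, S100a11 and S100a13) were followed here in tumor-associated macrophages (TAMs) from mouse melanoma. Members are the rows of a read count table that carry these names, a choice made with earlier results of these data known but by no threshold on a measured value, and make up 8 of its 39179 genes. The table holds 6 libraries of TAMs sorted from subcutaneous tumors in C57BL/6 hosts that were 8 weeks old. In 3 libraries the hosts carried wildtype tumor cells, with working Ptgs1 and Ptgs2 genes for the cyclooxygenases COX-1 and COX-2 (Ptgs-competent). In the other 3 libraries the tumor cells were Ptgs1/Ptgs2 deficient (Ptgs-deficient). According to the study's methods both were Braf V600E-driven melanoma cells, the deficient ones made by CRISPR editing, and each library was made from a pool of tumors. The edit was in the tumor cells, and the TAMs themselves came from unedited hosts. The sort kept live cells with CD45, CD11b and the macrophage antigen that Adgre1 encodes, without NK1.1 and Ly6G, and with little or no Ly6C. Because Ly6G marks neutrophils, the gate bears on the S100 genes that neutrophils express most.

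Each S100 protein carries a pair of EF-hand motifs, which bind calcium and expose a surface for partner proteins, and most act as dimers. S100a8 and S100a9 pair as calprotectin, which fills the cytosol of neutrophils, is also made by monocytes, and when released binds zinc and manganese and signals through TLR4 and RAGE. S100a4, S100a6, S100a10 and S100a11 are made by many motile cells, monocytes and macrophages among them, and act on the cytoskeleton, on annexins and at the plasma membrane. In what follows S100a8 and S100a9 are called neutrophil-type, and S100a4, S100a6, S100a10 and S100a11 monocyte-type. S100a1, best known from muscle, and S100a13, which takes part in the release of FGF1 and IL-1α, belong to neither type.

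All 8 genes lie on chromosome 3 (GRCm38), 6 of them within 184.688 kb (90511034 to 90695721) and S100a11 (93520488 to 93526287) with S100a10 (93555080 to 93564643) 2.82 Mb further on. S100a8 (ENSMUSG00000056054, plus strand, 90668978 to 90670035) and S100a9 (ENSMUSG00000056071, minus strand, 90692632 to 90695721) face each other in the cluster. S100a4 (ENSMUSG00000001020, 90603771 to 90606045) and S100a6 (ENSMUSG00000001025, 90612882 to 90624181) are both on the plus strand, with S100a5 between them. The stretches just upstream of these 4 genes are shown because they were the members whose levels were lower in every Ptgs-deficient library than in any Ptgs-competent one. They run 5′ to 3′ on the strand of the gene, come from RefSeq (GRCm38.p6), and end before the first annotated base of the transcript. Capitals mark matches to the letters TTNCNNAA (C/EBP) or GAGGAA (PU.1) on either strand.
S100a8, chr3:90668821-90668977, plus strand: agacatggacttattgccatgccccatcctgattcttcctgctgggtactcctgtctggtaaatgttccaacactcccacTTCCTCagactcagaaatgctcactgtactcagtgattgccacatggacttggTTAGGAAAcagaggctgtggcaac
S100a9, chr3:90695722-90695971, minus strand: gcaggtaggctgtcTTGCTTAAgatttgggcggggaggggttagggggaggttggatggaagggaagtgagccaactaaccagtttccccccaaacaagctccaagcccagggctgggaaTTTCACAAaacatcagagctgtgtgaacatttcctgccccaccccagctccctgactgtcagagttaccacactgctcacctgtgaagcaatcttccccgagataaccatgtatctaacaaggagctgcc
S100a4, chr3:90603520-90603769, plus strand: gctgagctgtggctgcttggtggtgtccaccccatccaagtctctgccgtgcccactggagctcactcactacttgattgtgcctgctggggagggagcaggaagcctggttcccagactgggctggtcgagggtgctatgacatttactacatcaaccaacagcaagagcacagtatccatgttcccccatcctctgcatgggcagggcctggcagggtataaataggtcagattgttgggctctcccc
S100a6, chr3:90612644-90612881, plus strand: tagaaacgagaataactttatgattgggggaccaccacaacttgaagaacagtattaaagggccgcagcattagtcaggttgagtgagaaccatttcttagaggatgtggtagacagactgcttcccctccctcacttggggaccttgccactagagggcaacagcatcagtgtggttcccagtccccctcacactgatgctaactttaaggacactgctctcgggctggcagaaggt

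Of the 7 members with a promoter entry (250 bases before to 50 after the start), only S100a8 and S100a9 held the C/EBP letters, which 40.7% of 32851 promoters hold. GAGGAA was in the promoters of S100a4, S100a8 and S100a11 and in 28.3% of all promoters, with the S100a4 match lying after its start. TGANTCA (AP-1) was found upstream of S100a11 alone (7.81% of all promoters) and GAAANNGAA (ISRE) at S100a1 alone (8.56%). TGACGTCA (CRE, 1.79% of all promoters) and TTCNNNGAA (GAS, 8.30%) were in none of the 7. A match describes the letters of this window and not the binding of a factor. S100a1 (ENSMUSG00000044080, minus strand, 90511034 to 90514392) and S100a13 (ENSMUSG00000042312, plus strand, 90514435 to 90524581) start back to back, and the 42 bases between them are shown because both genes begin at their edges.
S100a13 strand, chr3:90514393-90514434: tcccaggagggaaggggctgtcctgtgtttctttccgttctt

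Libraries held 4431184 to 8760679 counts, and Pearson correlations of log2(CPM + 1) between libraries ran from 0.462 to 0.772 across genes. All 14 macrophage identity genes (among them Csf1r, Cd68 and Adgre1) were detected and tested. Their summed level was 8213 to 22235 TMM-scaled CPM (counts relative to library size) in Ptgs-competent libraries and 26822 to 32376 in Ptgs-deficient libraries. Ptgs-competent replicate 3 stood apart, with the lowest of these sums, the fewest counts and the highest summed level of melanoma cell and fibroblast markers (1017 CPM against 384 to 386 in the other 2 of its group). The S100 values that moved most with this library are therefore also given without it.

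The comparison of the groups addressed how the loss of cyclooxygenases in tumor cells, and so of the prostaglandins they make, is reflected in TAMs. S100a4, S100a6, S100a8 and S100a9 had lower levels in TAMs from Ptgs-deficient tumors, with no overlap between the groups, and S100a13 had a higher level with no overlap. S100a1, S100a10 and S100a11 overlapped. None of the 8 was called by the edgeR quasi-likelihood test, for which a false discovery rate (FDR, the adjusted p over all genes tested) up to 0.05 and an absolute log2 fold change (log2FC, Ptgs-deficient over Ptgs-competent) of at least 1.5 were required. The test called 19 of 8793 genes tested, or 0.216%. At an unadjusted p under 0.05 the members counted 3 (S100a4, S100a6 and S100a8), all lower, where 3.82% of all genes tested were lower at that level. The same 3 were lower at that level by the edgeR likelihood ratio test (4.12% of all genes), DESeq2 (5.39%) and limma voom (6.04%), and limma voom put S100a13 there as higher (6.51% of all genes). These tests called 0 members, and 2.74%, 3.73% and 1.4% of all genes. Leaving out any 1 library left 1 or 2 members at that level in either direction, beside 6.72% to 12.9% of all genes. They were lower in each case except S100a13, which was higher without Ptgs-competent replicate 3. Groups did not overlap in the lower direction for 4 of 8 members and for 8.01% of all genes, and in the higher direction for 1 of 8 members and for 11% of all genes. Of the 8 log2 fold changes 6 were below 0 (7 with RLE size factors, column totals or DESeq2, through S100a10), as were 49.3% of those of all genes tested, whose median was 0.018. In these pooled bulk samples fewer cells of a type and less RNA per cell cannot be told apart, and p-values measure the spread between 3 pools a group.

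**Figure D1:**
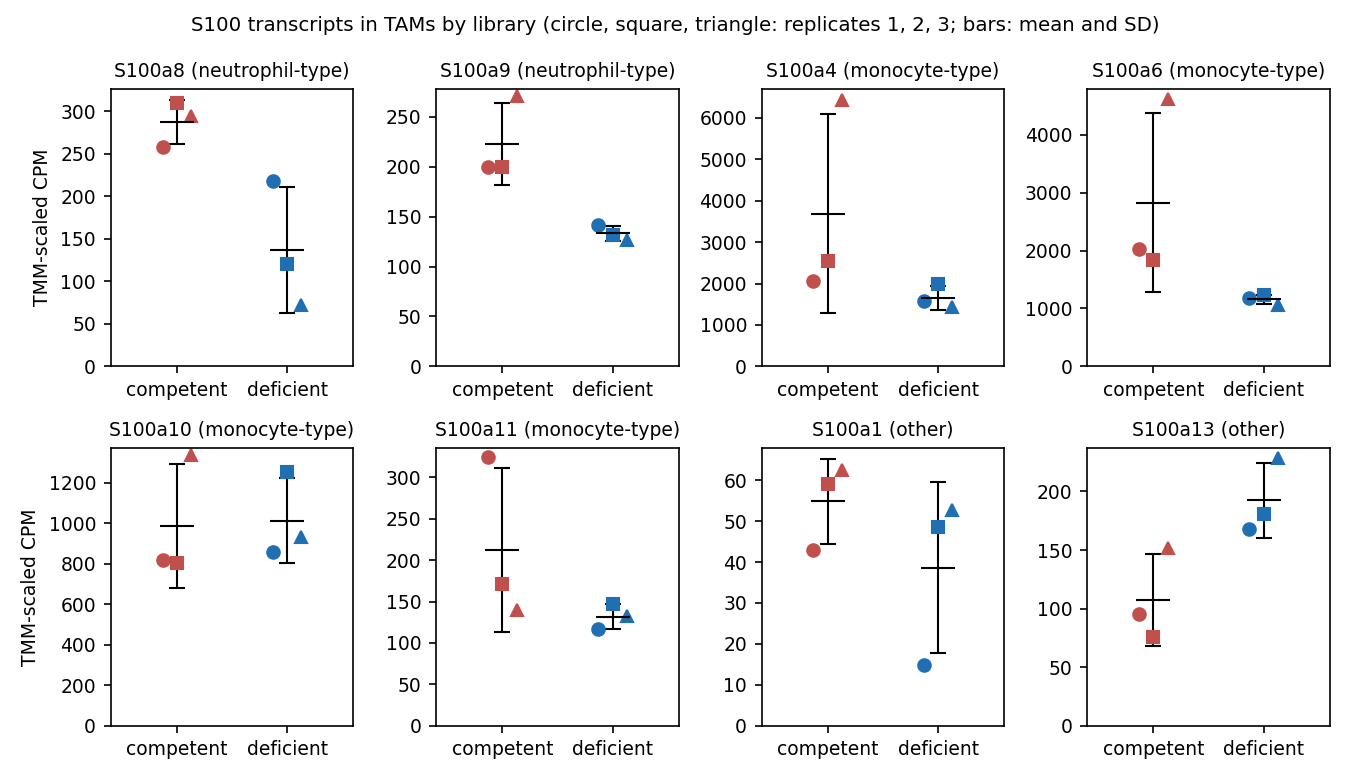
TMM-scaled CPM (y axes, linear, from 0) of each S100 member in the 3 Ptgs-competent (red) and 3 Ptgs-deficient (blue) libraries, with circles, squares and triangles for replicates 1, 2 and 3 and bars for the mean and SD. S100a4 and S100a6 in Ptgs-competent replicate 3 reach 6439 and 4612 CPM, far above the other libraries, while S100a8 and S100a9 separate the groups without that gap.

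S100a8, the smaller calprotectin subunit, was detected in every library at 350 counts or more. Its level was 258, 310 and 294 CPM in Ptgs-competent replicates 1, 2 and 3 and 218, 120 and 72.4 CPM in the Ptgs-deficient ones. All 3 Ptgs-deficient libraries lay below the lowest Ptgs-competent library. The means were 287 ± 26.3 CPM (SD, n = 3) and 137 ± 74.0 CPM (SD, n = 3). Its log2FC was -1.07 ± 0.445 (SE), with a 95% interval of -2.06 to -0.08 and an edgeR FDR of 0.485. Without Ptgs-deficient replicate 1, whose level came nearest to the Ptgs-competent libraries, the log2FC was -1.54, and without replicate 3 it was -0.76.

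S100a9, the other calprotectin subunit, had 199, 199 and 271 CPM in Ptgs-competent libraries and 141, 132 and 126 CPM in Ptgs-deficient libraries. The Ptgs-deficient values were tightly grouped, and each lay below all Ptgs-competent values. The means were 223 ± 41.1 CPM (SD, n = 3) and 133 ± 7.56 CPM (SD, n = 3). Its log2FC was -0.74 ± 0.361 (SE), its 95% interval of -1.55 to 0.06 included 0, and the edgeR FDR was 0.660. Over all alternatives it stayed between -0.82 and -0.53. The calprotectin subunits are made to pair, and the ratio of their levels (S100a8 over S100a9) was 1.30, 1.55 and 1.09 in Ptgs-competent libraries and 1.54, 0.910 and 0.574 in Ptgs-deficient libraries. This ratio overlapped between the groups, and S100a8 was the lower of the pair in Ptgs-deficient replicates 2 and 3 only.

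Neutrophil markers were examined beside calprotectin. Of 23 such markers 9 had 0 counts in every library, among them Ly6g, Mpo, Elane and Cd177. Another 8 were tested, with 0 called and 1 in each direction at an unadjusted p under 0.05. Cxcr2, G0s2 and Csf3r were among those detected and tested, and their groups overlapped. The summed level of the 23 markers was 522, 563 and 239 CPM in Ptgs-competent libraries and 426, 399 and 351 CPM in Ptgs-deficient libraries. The groups overlapped through Ptgs-competent replicate 3 alone, and without it every Ptgs-deficient sum was lower. That library had the lowest sum of all but the highest S100a9 level (271 CPM) and 294 CPM of S100a8, so the sum did not follow calprotectin there. The log2FC values of the tested markers split 4 above and 4 below 0 with a median of -0.40, which was 0.20 without Ptgs-competent replicate 3. Retnlg, a secreted resistin-like protein of neutrophils and some monocytes, had 20.2, 59.9 and 16.2 CPM against 123, 114 and 180 CPM in Ptgs-deficient libraries, a log2FC of 2.11 ± 0.656 (SE) at an edgeR FDR of 0.298. Il1r2, the decoy receptor for IL-1, had a log2FC of -1.504 ± 0.574 (SE) at an edgeR FDR of 0.403 and overlapping groups. Mmp8, the neutrophil collagenase, had 82.6, 15.9 and 6.47 CPM against 0, 0.238 and 12.6 CPM, which overlapped, a log2FC of -3.03 ± 2.25 (SE) at an edgeR FDR of 0.962. The part of neutrophil RNA in the S100a8 and S100a9 levels was not tested beyond these values.

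S100a4 (also called FSP1 or metastasin), which binds non-muscle myosin and is abundant in fibroblasts and motile leukocytes, was the most abundant member in every library. Its level was 2057, 2544 and 6439 CPM in Ptgs-competent libraries and 1573, 1985 and 1429 CPM in Ptgs-deficient libraries. The groups did not overlap, but the gap between Ptgs-competent replicate 1 and Ptgs-deficient replicate 2 was small beside the value of Ptgs-competent replicate 3. The means were 3680 ± 2402 CPM (SD, n = 3) and 1662 ± 288 CPM (SD, n = 3). Its log2FC was -1.15 ± 0.440 (SE), with a 95% interval of -2.13 to -0.17 and an edgeR FDR of 0.406. Without Ptgs-competent replicate 3 the Ptgs-competent mean was 2300 CPM and the log2FC was -0.42, at an edgeR FDR of 0.717.

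S100a6 (calcyclin), which binds annexins and the calcyclin-binding protein Cacybp, followed S100a4 in mean level in both groups. It had 2025, 1842 and 4612 CPM in Ptgs-competent libraries and 1173, 1233 and 1068 CPM in Ptgs-deficient libraries. The Ptgs-deficient libraries lay close together and below every Ptgs-competent one, with replicate 3 of the latter again the highest. The means were 2827 ± 1549 CPM (SD, n = 3) and 1158 ± 83.5 CPM (SD, n = 3). Its log2FC was -1.29 ± 0.391 (SE), with a 95% interval of -2.16 to -0.42 and an edgeR FDR of 0.291. It had the smallest p of the 8, at rank 241 of the 8793 genes. Without Ptgs-competent replicate 3 the mean of that group was 1934 CPM and the log2FC -0.69, at an edgeR FDR of 0.430. The ratio of S100a4 to S100a6 stayed between 1.02 and 1.61 in the 6 libraries.

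S100a10 (p11) forms a tetramer with annexin A2 that carries plasminogen at the cell surface. It had 821, 802 and 1339 CPM in Ptgs-competent libraries and 858.5, 1252 and 931 CPM in Ptgs-deficient libraries. The groups overlapped throughout. The means were 987 ± 305 CPM (SD, n = 3) and 1014 ± 209 CPM (SD, n = 3), and the log2FC was 0.04 ± 0.326 (SE), with a 95% interval of -0.69 to 0.77 and an edgeR FDR of 0.9995. The sign of this value changed with the scaling. The ratio of S100a4 to S100a10 was 2.51, 3.17 and 4.81 in Ptgs-competent libraries and 1.83, 1.59 and 1.54 in Ptgs-deficient libraries, without overlap, so that within a library these monocyte-type genes stood further apart in TAMs from Ptgs-competent tumors.

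S100a11 (calgizzarin), a partner of annexins A1 and A2, had 325, 172 and 140 CPM in Ptgs-competent libraries and 116, 147 and 132 CPM in Ptgs-deficient libraries. Ptgs-competent replicate 1 was the highest and replicate 3 lay among the Ptgs-deficient values. The means were 212 ± 98.7 CPM (SD, n = 3) and 132 ± 15.4 CPM (SD, n = 3). Its log2FC was -0.69 ± 0.427 (SE), with a 95% interval of -1.64 to 0.26 and an edgeR FDR of 0.870, and without Ptgs-competent replicate 1 it was -0.24. Its neighbor S100a10 therefore exceeded it 2.53-fold, 4.67-fold and 9.55-fold in Ptgs-competent libraries and 7.05-fold to 8.505-fold in Ptgs-deficient libraries.

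S100a13 was the member with a higher level in TAMs from Ptgs-deficient tumors and no overlap. It had 94.99, 75.3 and 152 CPM in Ptgs-competent libraries and 168, 180 and 229 CPM in Ptgs-deficient libraries. Here too Ptgs-competent replicate 3 was the highest of its group, which placed it nearest to the Ptgs-deficient libraries. The means were 107 ± 39.6 CPM (SD, n = 3) and 192 ± 32.2 CPM (SD, n = 3). Its log2FC was 0.84 ± 0.424 (SE), with a 95% interval of -0.10 to 1.79 and an edgeR FDR of 0.698. Without Ptgs-competent replicate 3 it was 1.22, at an edgeR FDR of 0.377.

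S100a1 was the least abundant member in every library. It had 42.9, 59.1 and 62.5 CPM in Ptgs-competent libraries and 14.8, 48.5 and 52.8 CPM in Ptgs-deficient libraries, where replicate 1 was low and the other 2 lay within the Ptgs-competent range. Its log2FC was -0.50 ± 0.832 (SE), with a 95% interval of -2.35 to 1.35 and an edgeR FDR of 0.9995, and without Ptgs-deficient replicate 1 it was -0.08. The ratio of S100a13 to S100a1, with 42 bases between their first exons, was 2.22, 1.275 and 2.42 in Ptgs-competent libraries and 11.4, 3.72 and 4.34 in Ptgs-deficient libraries. The ratios did not overlap.

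**Figure D2:**
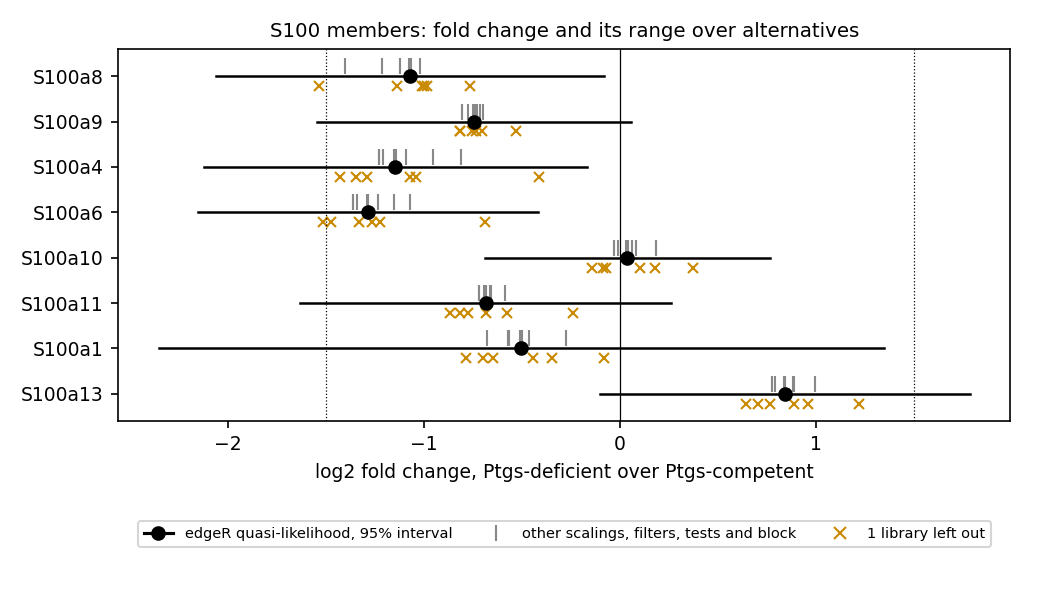
Log2 fold change (log2FC, x axis, Ptgs-deficient over Ptgs-competent) of each S100 member by the edgeR quasi-likelihood test (black points, lines for the 95% interval), under other scalings, filters, tests and the replicate block (gray ticks), and with 1 library left out (orange crosses). Dotted lines mark the fold threshold of 1.5 on the log2 scale, and the cross farthest to the right for S100a4 (-0.42) and S100a6 (-0.69) is the fit without Ptgs-competent replicate 3.

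Reads come from the 3′ end of each transcript, so that CPM of different genes can be set side by side without scaling by length, as far as their 3′ ends are primed and mapped alike. In Ptgs-competent libraries the order of mean levels was S100a4, S100a6, S100a10, S100a8, S100a9, S100a11, S100a13 and S100a1. The ranges of S100a4 and S100a6 overlapped, as did those of neighbors in the run from S100a8 to S100a13, while S100a6 and S100a10, S100a10 and S100a8, and S100a13 and S100a1 had separate ranges. In Ptgs-deficient libraries S100a13 came right after S100a10 and before S100a8, S100a9 and S100a11. There the ranges of S100a6 and S100a10 overlapped, as did those of neighbors in the run from S100a13 to S100a11, and the other neighbors had separate ranges. S100a4 and S100a6 together held 75.4% ± 6.78 (SD, n = 3) of the summed level of the 8 members in Ptgs-competent libraries and 63.1% ± 1.31 (SD, n = 3) in Ptgs-deficient libraries. S100a8 and S100a9 held 6.86% ± 2.29 (SD, n = 3) and 6.10% ± 2.01 (SD, n = 3). Without Ptgs-competent replicate 3 the shares in that group were 71.6% and 8.17%. The summed level itself reached 8378 ± 4271 CPM (SD, n = 3) in the former and 4467 ± 558 CPM (SD, n = 3) in the latter, and 5913 CPM in the Ptgs-competent group without replicate 3.

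The types were then set against each other as mean log2(CPM + 1), for which no p is given because the members were chosen together. The neutrophil-type mean was 7.83, 7.96 and 8.14 in Ptgs-competent libraries and 7.46, 6.99 and 6.59 in Ptgs-deficient libraries, a difference of group means of -0.96. The monocyte-type mean was 10.0, 9.81 and 10.6 against 9.36, 9.68 and 9.37, a difference of -0.67, or -0.44 without Ptgs-competent replicate 3. Both means were thus lower in every Ptgs-deficient library than in any Ptgs-competent one. Neutrophil-type minus monocyte-type was -2.17, -1.85 and -2.44 in Ptgs-competent libraries (-2.15 ± 0.298, SD, n = 3) and -1.90, -2.69 and -2.77 in Ptgs-deficient libraries (-2.45 ± 0.483, SD, n = 3). The groups overlapped through Ptgs-deficient replicate 1, and their difference of -0.30 was smaller than the pooled SD of 0.402. Without that library the difference was -0.58 and the groups did not overlap, and with log2 of summed CPM in all 6 libraries it was -0.11.

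**Figure D3:**
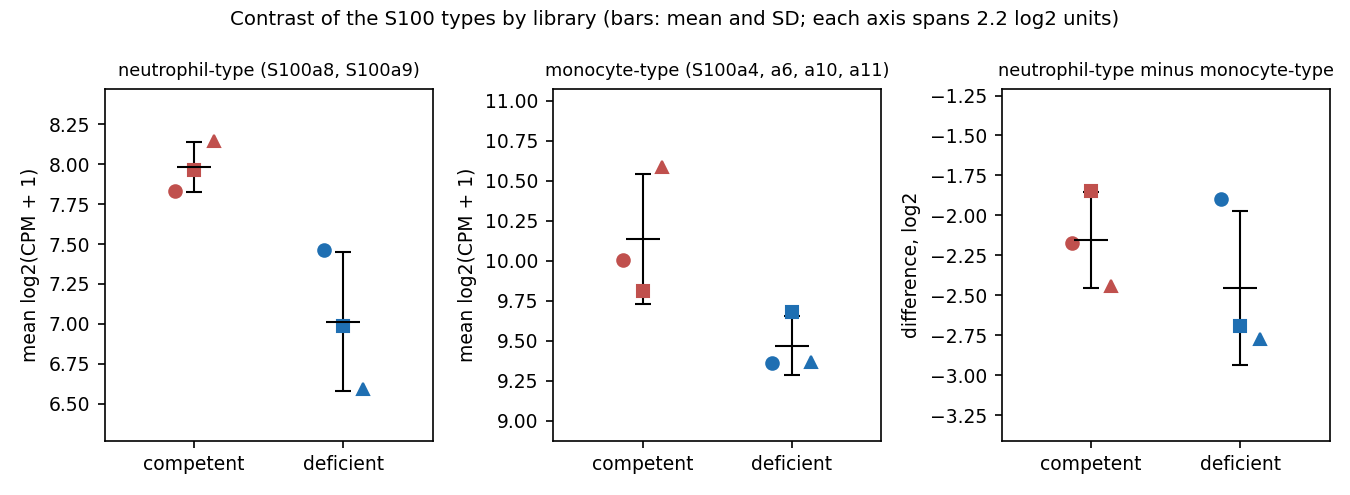
Mean log2(CPM + 1) of the neutrophil-type and monocyte-type members and their difference (y axes, each spanning the same 2.2 log2 units) in the 3 Ptgs-competent (red) and 3 Ptgs-deficient (blue) libraries, with circles, squares and triangles for replicates 1, 2 and 3 and bars for the mean and SD. The means of both types separate the groups, and their difference overlaps through Ptgs-deficient replicate 1.

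Monocyte markers had mostly positive log2FC values, unlike S100a4 and S100a6. Of 15 markers 14 were tested, 11 had a log2FC above 0, the median was 1.65 (1.47 without Ptgs-competent replicate 3), and 2 were called, both higher, with 6 higher and 0 lower at an unadjusted p under 0.05. The likelihood ratio test and limma voom called 5 and DESeq2 called 4, all higher. Plac8 had a log2FC of 3.20 ± 0.422 (SE) at an edgeR FDR of 0.023, and Fn1, fibronectin, 2.37 ± 0.356 (SE) at an edgeR FDR of 0.035. Nr4a1, a nuclear receptor of patrolling monocytes among other cells, had 1.87 ± 0.392 (SE) at an edgeR FDR of 0.107. Cx3cr1 and Treml4 had 0.45 ± 0.614 and -0.26 ± 2.21 (SE), with overlapping groups. Of the 3 below 0, Vcan had 26.6, 85.2 and 31.0 CPM against 0, 17.1 and 0 CPM, without overlap. Its log2FC was -3.05 ± 2.13 (SE) at an edgeR FDR of 0.935. The summed level of the list was 1398 to 3538 CPM in Ptgs-competent libraries and 7239 to 8251 CPM in Ptgs-deficient libraries. Of the 14 macrophage identity genes 0 were called and 7 were higher at an unadjusted p under 0.05, beside 776 of all 8793 genes tested in either direction. Itgam (CD11b), C1qb and C1qc had the smallest p, with edgeR FDR values of 0.261, 0.350 and 0.376. The median log2FC of the 14 was 0.92, or 0.63 without Ptgs-competent replicate 3, where 7 were higher and 1 lower at that unadjusted level.

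Melanoma cell and fibroblast markers, by contrast, were high in the libraries where S100a4 and S100a6 were high. Of these 16 markers 8 were tested and 0 were called, with 2 lower at an unadjusted p under 0.05 and log2FC values that were above 0 for 1 and below 0 for 7. Sparc was called lower by the likelihood ratio test, DESeq2 and limma voom. The summed level of these markers was 386, 384 and 1017 CPM in Ptgs-competent libraries and 95.2, 161 and 106 CPM in Ptgs-deficient libraries. Their median log2FC was -2.82, or -1.88 without Ptgs-competent replicate 3. The sum includes Gpnmb, which macrophages also express, at 47.3, 99.6 and 66.8 CPM against 42.0, 47.8 and 35.4 CPM. Sparc, a matrix protein of stromal cells, had 180, 126 and 600 CPM against 22.6, 17.6 and 36.8 CPM, a log2FC of -3.56 ± 0.663 (SE) at an edgeR FDR of 0.076. Col1a2 and Col3a1, which encode fibrillar collagen chains, had log2FC values of -2.86 and -3.43 with edgeR FDR values of 0.563 and 0.609. Mitf, a transcription factor of pigment cells that some myeloid cells also express, was the gene above 0, with 1.91, 0 and 0.647 CPM against 10.6, 44.3 and 18.2 CPM, which did not overlap, and an edgeR FDR of 0.703. It was higher at an unadjusted p under 0.05 by the likelihood ratio test and DESeq2. The pigment cell genes Pmel, Mlana, Tyr, Tyrp1, Dct and Sox10 and the fibroblast gene Lum had 0 counts in every library. Sparc, Col1a2 and Col3a1 had these reads after a sort for CD45 and CD11b, which fibroblasts and melanoma cells lack. The source of these reads and the part of stromal RNA in the S100a4 and S100a6 levels were not tested.

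**Figure D4:**
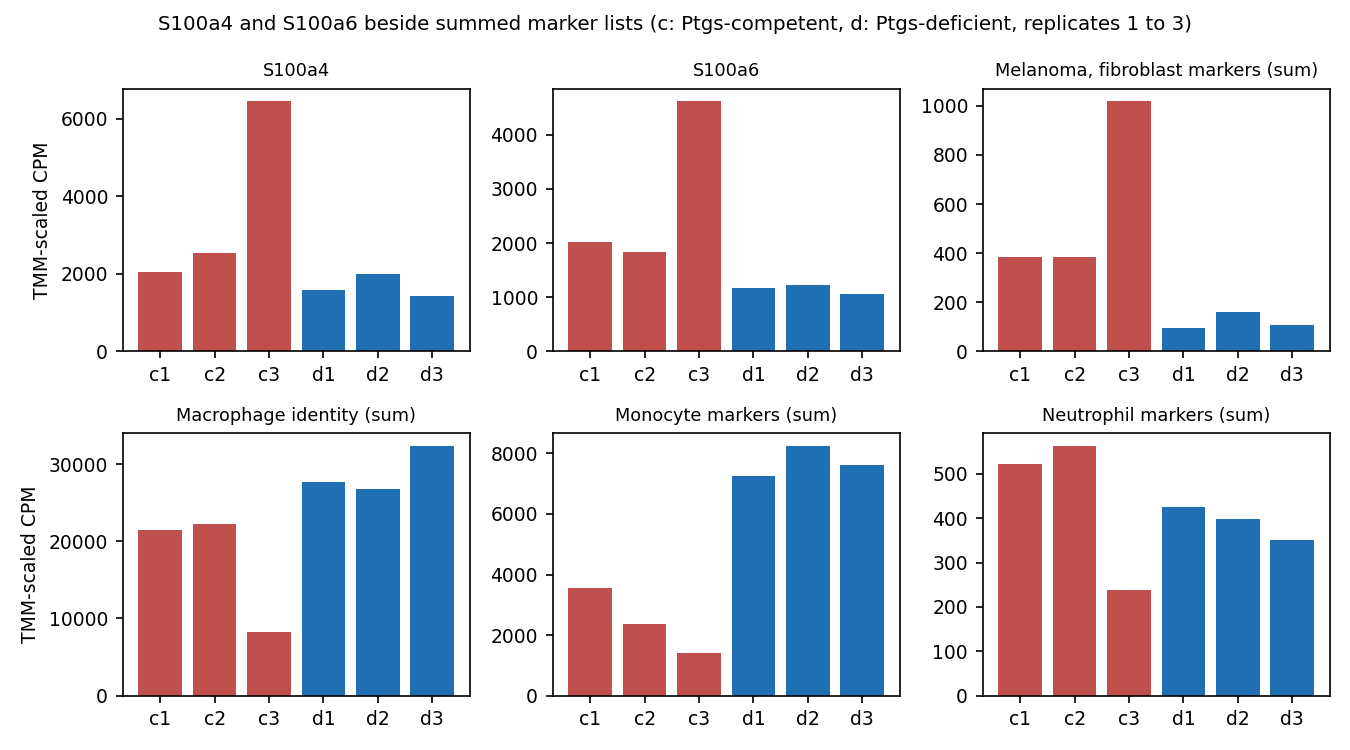
TMM-scaled CPM (y axes, linear, from 0) of S100a4, S100a6 and the summed marker lists in each library, with red bars for Ptgs-competent (c1 to c3) and blue bars for Ptgs-deficient (d1 to d3) replicates. In replicate 3 of the Ptgs-competent group S100a4, S100a6 and the melanoma cell and fibroblast sum are highest and the macrophage identity, monocyte and neutrophil sums are lowest.

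Markers of other cells were low or absent, platelet chemokines excepted. Keratinocyte, NK cell and dendritic cell lists had no gene that passed the filter, and their sums reached at most 14.7, 21.9 and 26.5 CPM. Of 7 platelet markers 2 were tested. Ppbp was called lower (log2FC -5.99 ± 0.855, SE, edgeR FDR 0.032), and Pf4, which macrophages also express, had a log2FC of -1.55 ± 0.350 (SE) at an edgeR FDR of 0.136. Both were called lower by the likelihood ratio test, DESeq2 and limma voom, and by the main test without Ptgs-competent replicate 3. Gp9, Gp1ba, Gp1bb and Treml1, which encode platelet surface proteins, had 0 counts in every library.

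Other genes of the family were scarce. S100a7a, S100a14, S100b, S100g and S100z had 0 counts in every library, where 3 counts stand for 0.357 to 0.647 CPM. S100a2 had 125 counts and S100a5 had 13 counts, in both cases in Ptgs-competent replicate 3 alone, and S100a3 had 35 counts in that library and 10 in Ptgs-deficient replicate 3. S100a3 spans S100a2 in the annotation, so that counts of these genes are uncertain. S100a16 had 77, 0 and 0 counts in Ptgs-competent libraries and 0, 18 and 89 in Ptgs-deficient libraries, a log2FC of 0.74 ± 2.95 (SE).

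Receptors through which released S100 proteins signal were described next. Of 9 listed, 7 were tested and 0 called, with 1 (Cd14) higher at an unadjusted p under 0.05, and 6 had a log2FC above 0, with a median of 0.57, which was 1.005 without Ptgs-competent replicate 3 and 1.03 by limma voom. Cd14, the co-receptor of TLR4, had 279, 187 and 118 CPM in Ptgs-competent libraries and 568, 569 and 394 CPM in Ptgs-deficient libraries. These did not overlap, and the log2FC was 1.39 ± 0.390 (SE) at an edgeR FDR of 0.241. Nptn, neuroplastin, a receptor for S100a8, had 0.87 ± 0.548 (SE) at an edgeR FDR of 0.877, and Ly96 (MD-2), which completes the TLR4 complex, 1.49 ± 1.37 (SE) at an edgeR FDR of 0.9995. Tlr4 itself was listed at 0 counts in Ptgs-competent replicate 2 and at 28.4 and 92.9 CPM in the other 2 libraries of that group, against 65.0, 69.8 and 43.2 CPM. Ager, which encodes RAGE, had reads in Ptgs-competent replicate 1 alone (3.51 CPM) and was not tested.

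Intracellular partners showed no common direction. Of 12 listed, 11 were tested and 0 called, with 1 in each direction (Ahnak and Myh9) at an unadjusted p under 0.05, and with 5 log2FC values above and 6 below 0 and a median of -0.03, which was 0.013 without Ptgs-competent replicate 3 and 0.018 by limma voom. Myh9, the heavy chain of non-muscle myosin IIA and the main partner of S100a4, had 449, 331 and 506 CPM against 201, 157 and 193 CPM, without overlap, a log2FC of -1.22 ± 0.332 (SE) at an edgeR FDR of 0.218. Ahnak, a giant scaffold that binds S100a10 with annexin A2, had 919, 780 and 1495 CPM against 1875, 1789 and 2112 CPM, also without overlap but in the other direction, a log2FC of 0.85 ± 0.326 (SE) at an edgeR FDR of 0.403. Anxa1, a partner of S100a11, had 1.13 ± 0.597 (SE) at an edgeR FDR of 0.744. Anxa2, the partner of S100a10, had 1055, 1564 and 1544 CPM against 994, 1184 and 1075 CPM, which overlapped, a log2FC of -0.36 ± 0.292 (SE). Of 8 genes listed for plasminogen activation at the cell surface, where S100a10 acts, 7 were tested and 0 called. Only 1 was lower at an unadjusted p under 0.05, and 0 were by the likelihood ratio test. It was Tgfbi, which encodes a secreted matrix protein and not a plasminogen activator. Log2FC values were above 0 for 3 and below 0 for 4. The median was -0.20, which was -0.11 without Ptgs-competent replicate 3 and 0.19 by limma voom. limma voom also moved the median of all genes, to 0.39. Tgfbi had the smallest p of these (log2FC -1.005 ± 0.449, SE, edgeR FDR 0.562), followed by Plaur, the urokinase receptor (1.82 ± 1.39, SE, edgeR FDR 0.974), and Anxa2. The likelihood ratio test, DESeq2 and limma voom also called 0 receptors, partners, plasminogen activation genes, neutrophil markers and macrophage identity genes.

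**Figure D5:**
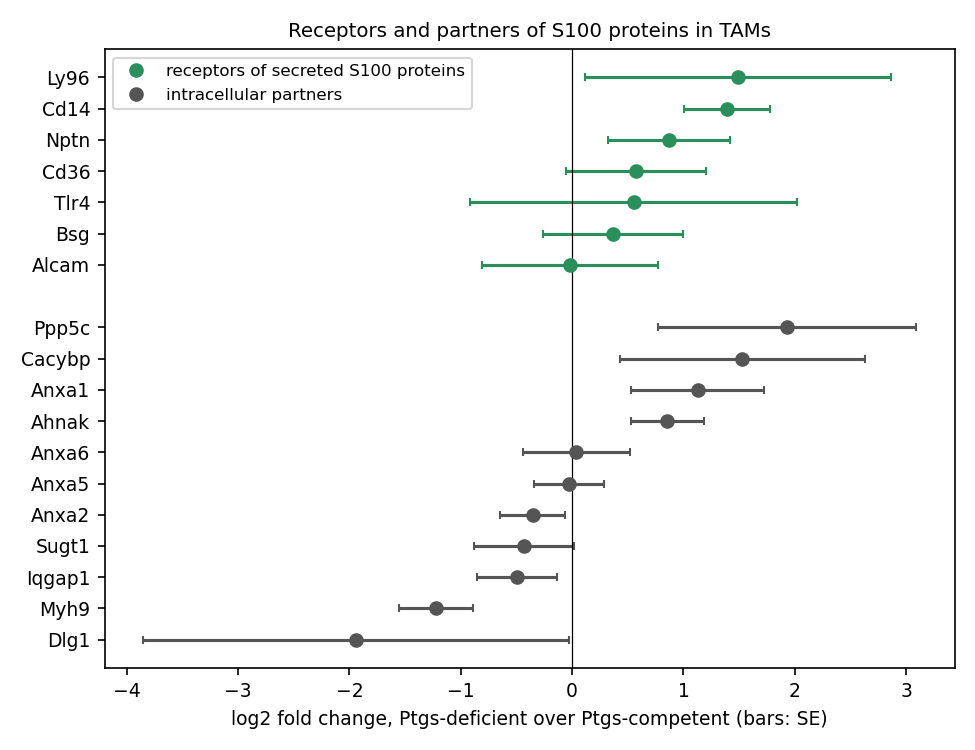
Log2 fold change (log2FC, x axis, Ptgs-deficient over Ptgs-competent; points, with bars for the SE) of the tested receptors of secreted S100 proteins (green) and of intracellular S100 partners (gray). Among the receptors 6 of 7 points lie above 0, and the partners lie on both sides, from Dlg1 and Myh9 to Ppp5c.

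Genes whose levels followed a member most closely over the 6 libraries were sought among 2978 other genes with a mean of at least 50 CPM, by Pearson correlation of log2(CPM + 1). The points share library and depth, and the coefficients are descriptions. For S100a9 these were Hsp90ab1 (0.993), Ncl (0.984), Prpf38b (0.981), Clu (0.981) and Top1 (0.981). For S100a6 they included Rest (0.993), Spag7 (0.991), Srp72 (0.986) and Cd44 (0.980). Hsp90ab1, a cytosolic chaperone, had 4364, 4611 and 6189 CPM in Ptgs-competent libraries and 2530, 2487 and 2299 CPM in Ptgs-deficient libraries, and Cd44, the hyaluronan receptor, had 269, 312 and 521 CPM against 218, 225 and 191 CPM. Both had the order of the groups, and the high value in Ptgs-competent replicate 3, of the S100 gene they followed.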

How the data were processed

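The authors deposited 1 table of raw counts per gene for the 6 libraries. Per the study's methods, libraries were made from 800 pg of total RNA with the QuantSeq FWD kit, which reads 3′ ends and here had no stated molecular identifiers. Reads were trimmed (BBDUK, fqtrim, cutadapt), aligned with STAR to GRCm38 (mm10) and counted with featureCounts. Strand setting and treatment of multiply mapped reads are not given in the sources used here, so that reads of overlapping or adjoining genes may be shared.

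Counts were filtered with filterByExpr (minimum count 10, total 15), scaled by TMM and tested with edgeR 4.0.16 (glmQLFit, glmQLFTest, two-sided, Benjamini-Hochberg over all genes tested) in R 4.3.3. Scripts were tested on simulated data. The SE of a fold change is its absolute log2 value over the square root of the F statistic. Alternatives used limma 3.58.1 and DESeq2 1.42.0. Floors of 3 counts cover counting error only. Positions are from GENCODE M21 and promoters from RefSeq, with no entry used for S100a10. Protein sequences were planned and not used here. Named were the members, other S100 genes, and of each further list the called genes and the 3 with the smallest p, further ones (such as Tlr4, Ager, Mitf and genes at 0) being chosen after their values were seen. Members and lists were chosen with earlier results of these data known. One gene among those most like S100a6 is not reported here.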

Additional observations from a re-analysis of the deposited data

How the results depend on the processing

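No member was called under any of 15 alternatives, and each kept its direction except S100a10. Its log2 fold change was -0.029 with RLE size factors, -0.010 with column totals only and -0.029 by DESeq2, and ran from -0.14 to 0.37 with 1 library left out. S100a6 passed an adjusted p of 0.05, at under the fold threshold, without a filter (0.0142), by DESeq2 (0.0122) and by limma voom (0.0357), and S100a4 without a filter (0.0349). The difference between neutrophil-type and monocyte-type means ran from -0.58 to -0.11. The number of genes called, 19, became 252 without a filter, 241 by the likelihood ratio test, 328 by DESeq2, 123 by limma voom, and 0 to 25 with 1 library left out. It was 0 without Ptgs-competent replicate 1 (1231 genes at an unadjusted p under 0.05), 11 without replicate 2, and 2, 4 and 3 without Ptgs-deficient replicates 1, 2 and 3. The cause was not tested. Where a library was left out, its group kept 2. limma voom moved the median log2 fold change of all genes to 0.39, and the fits without Ptgs-competent replicates 1 and 3 moved it to 0.14 and 0.13. With 3 pools a group and a biological coefficient of variation of 1.26, intervals of members span 1.5 log2 units or more for all but S100a10.

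Replicate numbers are shared between the groups. Deviations of same-numbered libraries correlated at -0.042, -0.017 and -0.025, so the numbers were not taken to pair them, and no library correlated best with its own number. With a replicate block 77 genes and 0 members were called, and the median log2 fold change of all genes was 0.26. The block left 2 members at an unadjusted p under 0.05, S100a6 and S100a8, while S100a4 had an edgeR quasi-likelihood p of 0.0552.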
